A study of Mus musculus with 6 samples.

Results

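Vit and Prss56 are 2 of the 39179 genes counted in the retinas of newborn mice, described as a pair because both stood several-fold higher when Lhx2 was deleted. They were picked by name after earlier results of the same data were known, for the size and evenness of their rise in the comparison of the deleted retinas with the controls. That comparison is therefore given for them as a description, with no p-value. The deleted animals were Lhx2 lox/lox; Pdgfrα-Cre mice (Lhx2 conditional knockout, cKO; n = 3), in which a Cre recombinase driven by the Pdgfra promoter removes the floxed Lhx2 alleles in cells that have used that promoter. The controls were Lhx2 lox/lox mice without Cre (n = 3), which the series text calls wild type. All carried the floxed alleles on a mixed, mainly CD-1 background, and retinas were taken at postnatal day 0.5. The libraries are cKO 1, 2 and 3 and control 2, 3 and 4, numbered as their labels are.

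Lhx2 is a LIM homeodomain transcription factor that retinal progenitors need, and Müller glia are the last cells those progenitors make. Vit encodes vitrin, a secreted matrix protein first described in the vitreous gel, with an LCCL domain and von Willebrand factor A domains. Its closest kin is cochlin, the product of Coch. Prss56 encodes a secreted serine protease of the trypsin fold. In mice it is made by Müller glia, and loss of its function gives short eyes in mice and in people.

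Vit (ENSMUSG00000024076) lies on chromosome 17 from 78508064 to 78627408, plus strand, in the GRCm38 build, and its merged exons cover 3227 bases. GENCODE gives it 4 transcripts, of which 2 code for protein. These differ by 1 coding exon of 66 bases at chr17:78546379-78546444, and gene counts cannot tell them apart. Prss56 (ENSMUSG00000036480) is compact, on chromosome 1 from 87183313 to 87188405, plus strand, with 1 transcript of 13 exons over 2180 bases. No annotated gene overlaps Prss56. The only one within Vit is Gm22562, a ribosomal RNA fragment with 0 reads in all libraries.

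The 250 bases before the RefSeq start of Prss56 are shown because they hold the core promoter from which the gene is read, and because Lhx2 belongs to a homeodomain family that binds TAATTA. They cover chr1:87183064-87183313 (GRCm38.p6, plus strand), and the capitals mark a TATATA stretch.
Prss56 promoter: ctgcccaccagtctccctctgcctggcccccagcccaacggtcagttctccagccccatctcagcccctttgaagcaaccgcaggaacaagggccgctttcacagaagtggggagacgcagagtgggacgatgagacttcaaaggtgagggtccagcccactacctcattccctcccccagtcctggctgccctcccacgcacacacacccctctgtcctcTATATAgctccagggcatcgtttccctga
The window is 61.2% G and C, against a median of 52.4% over 32851 RefSeq promoter windows of the same length. TATATA starts 29 bases before the gene start, and 5.25% of windows hold that motif on either strand. The window has no TAATTA on either strand, a motif found in 4.84% of windows, and no TAAT, a shorter motif contained in it and found in 54.9%. Of the 2 genes, 1 was matched in the promoter table.

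The libraries held 31483170 to 66947478 reads on genes. They fall into 2 sets that cross genotype: set A (cKO 1, cKO 2 and control 2) had 3.13 to 3.20% of its deposited counts ambiguous between genes, and set B (cKO 3, control 3 and control 4) had 2.63 to 2.69%. The labels have no counterpart to these sets. By reads of Y-linked genes, controls 2 and 4 were male and the other animals female, so all males were controls. Lhx2 itself was at 252, 287 and 224 CPM (counts per 1000000 gene reads, scaled by TMM) in cKO 1, 2 and 3, against 399, 266 and 258 CPM in controls 2, 3 and 4. Its log2 fold change was -0.40 with library set in the model (SE 0.10, adjusted p = 0.0338, edgeR quasi-likelihood test). It no longer passed when a library was left out, namely control 2 (adjusted p = 0.414), control 3 (0.0794), cKO 2 (0.0602) or cKO 3 (0.0727), or when sex was added to the model (0.371). Which exons Cre removes is not stated in the labels, so reads over the whole gene check the deletion only in part. Pdgfra, whose promoter drove Cre, differed by -0.01 on the same scale (SE 0.12, adjusted p = 0.968). The 8 retinal markers used to check the tissue (among them Rax, Six6, Crx, Otx2, Pou4f2, Neurod1 and Ccnd1) were all well above 0. Of the 8, 1 was called higher and 5 lower, where 6.36% rose and 5.63% fell over all genes tested. Their summed level was 2985 to 3738 CPM in cKO and 6016 to 6190 CPM in control retinas.

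Vit was the steadier of the pair. It was at 38.7, 38.9 and 38.8 CPM in cKO 1, 2 and 3, against 5.005, 4.88 and 5.57 CPM in controls 2, 3 and 4. Every cKO retina was at least 6.96 times the highest control, and the groups did not overlap. The means were 38.8 ± 0.0855 CPM in cKO and 5.15 ± 0.367 CPM in control retinas (SD, n = 3 each), a ratio of 7.53. The log2 fold change was 2.92 (SE 0.11) with library set in the model and 2.91 (SE 0.18) without it. In bulk tissue, more cells that make a transcript and more transcript per cell cannot be told apart.

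The spread of Vit between animals depends on the scaling. Its values rest on 1139 to 2814 reads in cKO and 163 to 229 reads in control libraries. Counting alone would give a coefficient of variation of 2.38% in the cKO and 7.41% in the control group, and the observed values under TMM were 0.22% and 7.12%. The cKO values were nearest to identical under TMM. The cKO libraries ran from 37.7 to 38.8 CPM with RLE size factors, 38.4 ± 0.606 CPM (SD, n = 3), also a spread narrower than counting gives. With library size alone they ran from 36.2 to 42.6 CPM, 40.3 ± 3.54 CPM (SD, n = 3), a spread wider than counting gives. Under each scaling all cKO values stayed far above the controls, which were at most 5.62 CPM.

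Prss56 was far less even between animals. It was at 256, 176 and 89.9 CPM in cKO 1, 2 and 3, against 28.1, 11.2 and 4.47 CPM in controls 2, 3 and 4. The groups did not overlap here either, but the lowest cKO retina was only 3.20 times the highest control. The means were 174 ± 83.0 CPM in cKO and 14.6 ± 12.2 CPM in control retinas (SD, n = 3 each), a ratio of 11.9. Within the groups the highest library was 2.85 times the lowest among cKO and 6.28 times among controls. Counts of 2642 to 14336 reads in cKO and 135 to 1285 reads in control libraries put counting error at 1.33% and 6.02%, against observed coefficients of variation of 47.8% and 83.4%. The log2 fold change was 3.21 (SE 0.30) with library set in the model and 3.57 (SE 0.75) without it.

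Both genes passed the filter on low counts, and both had over 100 reads in each control library, so neither passed through the cKO group alone. Of the 16691 genes tested, 6.36% were called higher in cKO retinas with library set in the model and 0.216% without it, while 5.63% were called lower with it. Every cKO library was above every control in 8.38% of genes and below in 5.54%. Both genes lie above in this way, and since they were chosen for this contrast, nothing is read from it. Of the 66 other genes followed through every alternative, including all the called ones named here except marker genes, 56 lost their call without library set. Coch, Prss23, Prss35, Pdgfra and Efna3, which are among the 66, had no call to lose. Among the genes called either way were Adamts18, Calb1 and Nhlh1, and also Cryga, which passed the filter only through the cKO libraries.

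**Figure D1:**
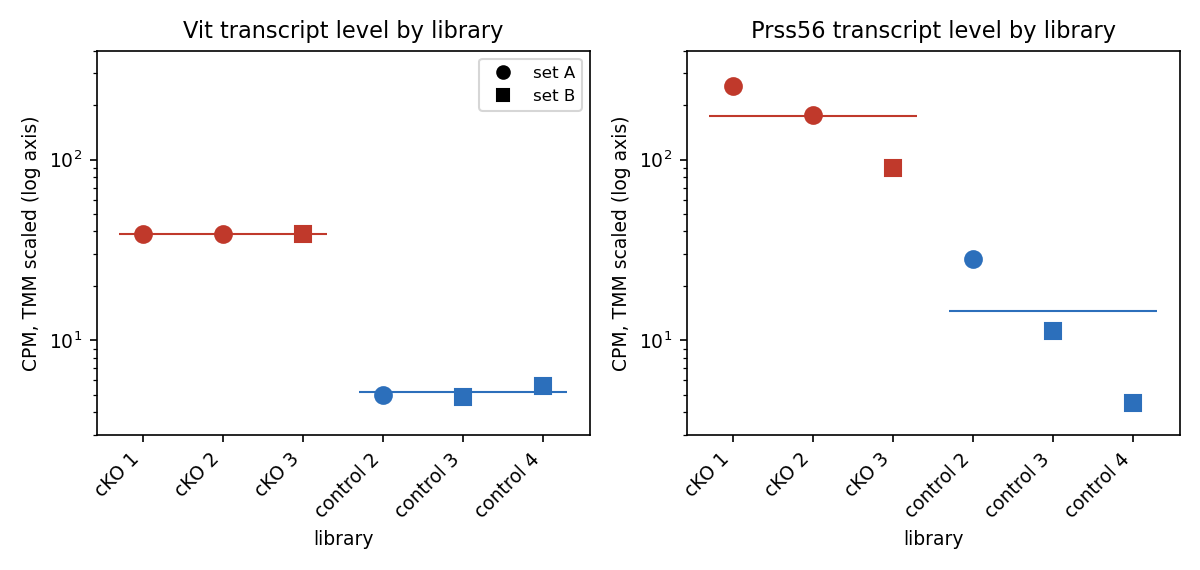
Level of Vit (left) and Prss56 (right) in each library, in CPM scaled by TMM on a log axis; red is cKO, blue is control, circles are set A, squares are set B, and lines are group means. Vit sits at 38.7 to 38.9 CPM in all cKO libraries and at 4.88 to 5.57 CPM in the controls, while Prss56 spreads from 89.9 to 256 CPM in cKO and from 4.47 to 28.1 CPM in the controls, lower in set B within each group.

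The difference between library sets was unlike in the 2 genes. This contrast, set B against set A with genotype in the model, is a description for them. They were picked partly for evenness over the same libraries, so no p-value is given. Prss56 was lower in set B by a log2 difference of -1.53 (SE 0.29). Of all genes tested, 63.7% differed between the sets at adjusted p under 0.05 (edgeR quasi-likelihood test). Vit had a log2 difference of 0.03 (SE 0.11), and its sign changed between scalings. Leaving out single libraries kept the Prss56 difference between -1.81 and -1.27.

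Genotype differences within each set are a description, since the genes were chosen for this comparison. For Vit the ratio of cKO to control levels was 7.75 in set A and 7.43 in set B. For Prss56 it was 7.68 in set A and 11.5 in set B, or 2.92 and 3.67 as mean log2 differences. The set B ratio of Prss56 rests on 1 cKO library and on controls at 11.2 and 4.47 CPM. In a fit with a term for genotype within set, the genotype effect of Prss56 in set B minus that in set A was 0.57 on the log2 scale. This fitted value is another measure than the mean log2 differences above. No difference between the sets is read from it, and no test of it is given. Set A holds 1 control and set B holds 1 cKO library, so neither set alone has a spread for both groups. With sex added to library set, the log2 fold change was 3.03 for Vit (SE 0.19) and 2.699 for Prss56 (SE 0.46).

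The number of Prss56 reads per Vit read needs no scaling between libraries. It was 6.61, 4.51 and 2.32 in cKO 1, 2 and 3, against 5.61, 2.29 and 0.804 in controls 2, 3 and 4. The genotype groups overlap on this measure. The sets do not: set B libraries had 0.804 to 2.32 and set A libraries 4.51 to 6.61 Prss56 reads per Vit read. The mean log2 ratio was 0.70 ± 0.88 in set B and 2.46 ± 0.28 in set A (SD, n = 3 each). No test is given, since an exact permutation of 3 libraries against 3 cannot go below p = 0.1 and the sets hold unequal numbers of cKO libraries, 1 in set B and 2 in set A.

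**Figure D2:**
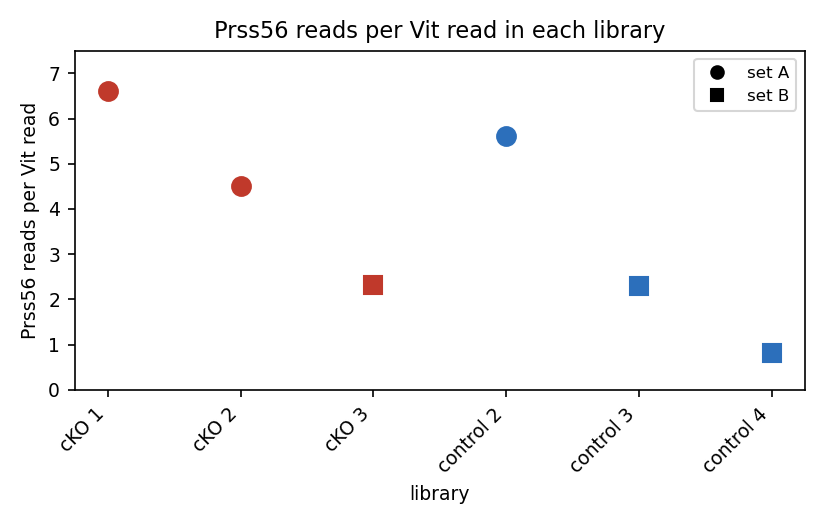
Prss56 reads per Vit read in each library, a ratio that no scaling of libraries changes; red is cKO, blue is control, circles are set A and squares set B. All circles lie at 4.51 or above and all squares at 2.32 or below, whichever the genotype.

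Per base of exon, Prss56 was the higher of the pair in every library. Its level in CPM per kilobase of exon (RPKM) was 79.7 ± 38.1 in cKO and 6.69 ± 5.58 in control retinas, and that of Vit was 12.0 ± 0.0265 in cKO and 1.60 ± 0.114 in control retinas (SD, n = 3 each). Ranked by mean RPKM among the genes tested, Prss56 exceeded 97.1% of genes in cKO and 58.6% in control retinas. Vit exceeded 73.1% of genes in cKO and 31.1% in control retinas. The fitted dispersion, which describes spread between animals beyond counting, was 0.0602 for Prss56, above that of 85.4% of genes, and 0.00951 for Vit, above that of 31.4%. The median gene had 0.0138.

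In the order of log2 fold changes among the 813 genes called higher with a mean of at least 2 CPM, Prss56 took place 28 and Vit place 32. Just ahead of Prss56 stood Htra3, a secreted serine protease (3.60, SE 0.18), F13a1, the A subunit of coagulation factor XIII (3.41, SE 0.67), and Ogn, a small leucine-rich proteoglycan (3.23, SE 0.49). Between them came Bfsp2, a lens filament protein (3.19, SE 0.36), Fam198b (3.03, SE 0.27) and the adhesion receptor gene Adgrf5 (2.96, SE 0.31). Behind Vit followed Mrc1, the mannose receptor of macrophages (2.91, SE 0.57), Smoc2, a secreted calcium-binding matrix protein at 5.95 ± 1.09 CPM in cKO and 0.800 ± 0.298 CPM in control retinas (SD, n = 3 each; SE 0.33), and Cartpt, a neuropeptide precursor (2.78, SE 0.21). F13a1 and Ogn were low in control retinas, at 0.557 ± 0.771 and 0.377 ± 0.381 CPM (SD, n = 3 each). Both passed the filter only through the cKO libraries, where they are high. Their calls, and so their places in this order, were in part fixed by it, and no p-value is read from them. Both lost their calls without cKO 3. Mrc1 lost its call without cKO 3 (adjusted p = 0.0510, edgeR) or without control 3 (0.0503).

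Markers of other cell types moved with genotype in some of the lists used to check this. Over all genes tested, 6.36% rose and 5.63% fell. Of 11 lens genes tested 11 rose, and their summed level with Lim2, the membrane protein gene left out by the filter, was 2186, 2277 and 845 CPM in cKO 1, 2 and 3, against 6.34, 2.69 and 4.14 CPM in controls 2, 3 and 4. Lens genes such as Crygs, Crygd and Mip were at most 0.0874 CPM in controls. They passed the filter only through the cKO libraries, so their calls were in part fixed by it. Across the cKO retinas the lens sum was lowest in cKO 3 and highest in cKO 2. Prss56 was also lowest in cKO 3 but highest in cKO 1, and Vit was level under TMM. Since cKO 3 is the only cKO library of set B, a low value there cannot be told apart from library set. Of 5 microglial genes 4 rose, with sums of 31.4 to 53.3 CPM in cKO and 11.0 to 26.3 CPM in control retinas. Of 8 genes of endothelium and pericytes 5 rose and 1 (Kdr) fell, with sums of 295 to 579 CPM in cKO and 547 to 722 CPM in control retinas. Most of that sum was Kdr, at 240 to 424 CPM in cKO and 509 to 683 CPM in control retinas. Of 6 astrocyte genes 1 (Aldh1l1) rose, with sums of 72.8 to 79.0 CPM in cKO and 63.6 to 81.6 CPM in control retinas. None of 5 tested pigment epithelium genes passed, with sums of 10.1 to 27.7 CPM in cKO and 4.14 to 13.7 CPM in control retinas, and none of 6 genes of mesenchyme and sclera, with sums of 7.73 to 20.1 CPM in cKO and 6.20 to 23.1 CPM in control retinas. Surface ectoderm keratins summed to at most 0.511 CPM in any library. The part of any of these cells in the levels of Vit and Prss56 was not tested.

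Among the neighbours of Prss56 was Chrng, which had almost no reads in control retinas and rose in cKO retinas. Of the 15 protein-coding genes within 500 kb of Prss56, 8 passed the filter, 3 of those rose and 0 fell, where 12.0% of all genes were called in either direction and 6.36% rose. Chrng passed the filter only through the cKO libraries, where it is high, so its call was in part fixed by the filter, and nothing is read from the count. Chrng, the gamma subunit gene of the fetal muscle acetylcholine receptor, starts 16252 bases after the end of Prss56 on the same strand. It was at 2.46, 1.93 and 0.817 CPM in cKO 1, 2 and 3, against 0.0437 CPM in control 2 and 0 CPM in controls 3 and 4. The 302 reads in cKO and 2 in control libraries give a ratio of 105 (95% exact counting interval 28.7 to 868). That ratio is a description, and no p-value is given for Chrng because of the filter. Across the cKO retinas Chrng had the same order as Prss56, lowest in cKO 3, the only cKO library of set B. Chrnd, the delta subunit gene that lies between them, 2202 bases after Prss56, had 13 reads in cKO and 1 read in control libraries and was not tested.

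The other genes that rose near Prss56 were farther away. Efhd1, a calcium-binding mitochondrial protein gene, rose to 14.4, 14.5 and 16.4 CPM in cKO 1, 2 and 3, against 6.60, 4.73 and 3.78 CPM in controls 2, 3 and 4 (log2 fold change 1.52, SE 0.19, adjusted p = 0.00240, edgeR). Inpp5d, a phosphatase gene of blood and immune cells, rose with a log2 change of 1.61 (SE 0.29, adjusted p = 0.00965), a call lost without cKO 3 (0.144), and microglial markers rose beside it as given above. Ecel1, 26792 bases before Prss56 on the other strand, had a log2 change of 0.21 (SE 0.23, adjusted p = 0.615), and Eif4e2, next after Chrng, had a change of 0.03 (SE 0.08, adjusted p = 0.873).

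Of the 12 protein-coding genes within 500 kb of Vit, 11 were tested, 1 rose and 1 fell, a number near the 12.0% called over all genes. Crim1, a membrane protein gene that ends 131472 bases before Vit and encodes a binder of bone morphogenetic proteins, rose to 81.7, 99.0 and 170 CPM in cKO 1, 2 and 3, against 58.1, 75.6 and 70.7 CPM in controls 2, 3 and 4 (log2 fold change 0.93, SE 0.13, adjusted p = 0.00436, edgeR). Prkd3, a protein kinase gene, fell, with a log2 change of -0.48 (SE 0.09, adjusted p = 0.0128), though its cKO and control levels overlapped. The genes on either side of Vit did not pass, with 0.30 for Fez2 (SE 0.10, adjusted p = 0.0897) and -0.24 for Strn (SE 0.12, adjusted p = 0.232). Without cKO 3 the Crim1 call was lost (0.0667), and Prkd3 lost its call without cKO 3 (0.139), control 2 (0.113) or control 3 (0.0545).

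**Figure D3:**
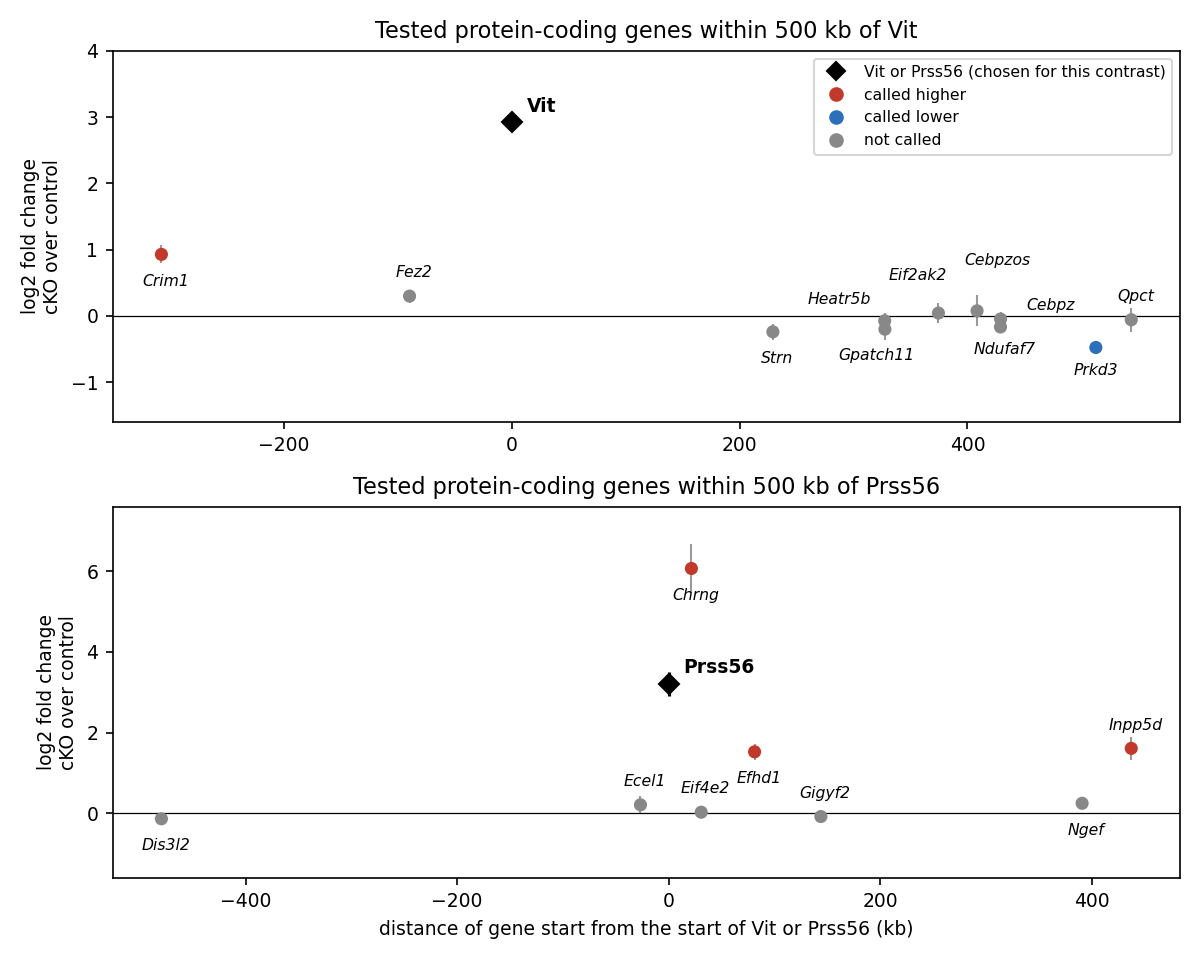
Log2 fold change, cKO over control with library set in the model, of the tested protein-coding genes around Vit (top) and Prss56 (bottom) against the distance of each gene's start from the start of Vit or Prss56 in kb; bars are SE. Chrng stands at 6.07 beside Prss56 at 3.21, a fitted value that rests on 2 control reads, while the nearest tested genes on both sides of Vit, Fez2 and Strn, lie at 0.30 and -0.24.

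The pattern of Vit over the 6 libraries was closest to that of Calb1, by Pearson's r of log2 CPM among 12108 named genes with a mean of at least 2 CPM. Calb1, which encodes a calcium buffer of horizontal cells, had r = 0.999 and stood at 22.5 ± 1.41 CPM in cKO and 3.88 ± 0.310 CPM in control retinas (SD, n = 3 each). Also among the 6 closest were the lens crystallin gene Cryga (r = 0.997), the neuronal transcription factor gene Nhlh1 (0.995), Gprasp1 (0.994) and the kinase gene Sgk1 (0.993). The log2 fold changes of the 6 ranged from 0.33 for Gprasp1 to 9.80 for Cryga. The likeness is thus in shape over libraries and not in size. With 6 libraries that share 2 genotypes, 125 genes had r over 0.95 with Vit, and with each set's mean subtracted only 2 of these 6 stayed among the 6 closest.

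Prss56 was closest to Folr1, the folate receptor alpha gene (r = 0.994), at 6.52 ± 1.34 CPM in cKO and 1.45 ± 0.763 CPM in control retinas (SD, n = 3 each). Also among the 6 closest were Rusc1 (r = 0.993), the ephrin gene Efna3 (0.992), Arhgdib (0.992) and the water channel gene Aqp1 (0.992). All 6 ordered the libraries exactly as Prss56 did, as did 78 genes in all, and 1 stayed among the 6 closest with each set's mean subtracted.

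Coch, the closest kin of Vit, did not pass the test, and Vwf had the largest rise among the other genes of its domain families. Of 17 genes of LCCL and von Willebrand A domain matrix proteins, 14 were tested, 3 rose and 0 fell, where 6.36% rose and 5.63% fell over all genes, with a median log2 fold change of 0.19 against -0.000982 over all genes. Coch was at 8.91, 8.57 and 8.95 CPM in cKO 1, 2 and 3, against 8.98, 9.81 and 11.4 CPM in controls 2, 3 and 4 (log2 fold change -0.14, SE 0.14, adjusted p = 0.587, edgeR). The genes that rose were Vwf, the von Willebrand factor of endothelium (2.15, SE 0.34, adjusted p = 0.00586), Vwa1, a basement membrane protein gene (1.02, SE 0.24, adjusted p = 0.0292), and Crispld1 (0.77, SE 0.21, adjusted p = 0.0493). The groups overlapped for Crispld1, at 1.82, 2.14 and 6.50 CPM in cKO 1, 2 and 3, against 1.29, 3.62 and 3.35 CPM in controls 2, 3 and 4. Its log2 fold change without library set was 0.34. Of the 8 endothelium and pericyte markers 5 rose beside Vwf, among them Pecam1 (1.70) and Cdh5 (2.13), while Kdr fell (-0.71, adjusted p = 0.0138) and Cldn5 (-0.13) and Cspg4 (0.59) did not pass. Their part in the Vwf level was not tested. Of these calls, 1 was left without cKO 2, control 2, control 3 or control 4. The number left was 0 without cKO 3 and 0 when sex was added to the model. Calls over all genes were also fewer in these runs than the 1062 that rose and 939 that fell. They came to 176 and 134 without cKO 3 and to 173 and 63 with sex.

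Among secreted serine proteases and their serpin inhibitors, 18 of 25 genes were tested, 2 rose and 0 fell, with a median of 0.05. The number called is near the share over all genes, 12.0% in either direction. Htra3 rose to 19.3, 18.8 and 9.36 CPM in cKO 1, 2 and 3, against 1.84, 0.658 and 0.596 CPM in controls 2, 3 and 4 (log2 fold change 3.60, SE 0.18, adjusted p = 9.14e-06, edgeR). Like Prss56, Htra3 was lowest in cKO 3 among the cKO retinas and highest in control 2 among the controls. These are the only cKO library of set B and the only control of set A, so the likeness cannot be told apart from library set. Serpini1, which encodes the neuronal inhibitor neuroserpin, rose by 0.42 (SE 0.08, adjusted p = 0.0121). Its groups overlapped, at 50.4, 50.9 and 77.0 CPM in cKO 1, 2 and 3, against 38.1, 55.2 and 59.4 CPM in controls 2, 3 and 4. The trypsin-fold kin Prss23 (-0.22, SE 0.10, adjusted p = 0.194) and Prss35 (0.57, SE 0.31, adjusted p = 0.279) did not pass, nor did the plasminogen activator genes Plat (0.20, SE 0.14) and Plau (0.97, SE 0.46). Calls numbered 4 without cKO 1, where 1371 of all genes rose and 1336 fell. They numbered 1 without cKO 3 (176 and 134 over all genes), without control 3 (545 and 452) or when sex was added (173 and 63). The Htra3 call held in each of these runs.

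Prss56 belongs to the genes of eye size and refraction by its mutant phenotype. Of 26 others listed, 25 were tested, 2 rose and 6 fell, with a median of -0.03, where 6.36% rose and 5.63% fell over all genes. The share that rose is near that background. Adamts18, a secreted metalloprotease gene, rose to 49.2, 45.2 and 73.3 CPM in cKO 1, 2 and 3, against 10.7, 13.2 and 9.24 CPM in controls 2, 3 and 4 (log2 fold change 2.43, SE 0.17, adjusted p = 8.28e-05, edgeR), and it was the list's only call without library set in the model. Lrp2, the endocytic receptor megalin, rose by 0.94 (SE 0.21). Among those that fell were the Wnt receptor gene Fzd5 (-0.76, SE 0.12), the polarity gene Crb1 (-0.65, SE 0.12), Tmem98 (-0.55, SE 0.09), Sox2 (-0.51, SE 0.09) and Otx2 (-0.45, SE 0.11). Tmem98, whose cKO and control levels overlapped, and Mfrp are, like Prss56, nanophthalmos genes in people. Mfrp, a frizzled-related membrane protein gene, was at 0.286, 0.428 and 0.681 CPM in cKO 1, 2 and 3, against 0.415, 0.209 and 0.133 CPM in controls 2, 3 and 4 (adjusted p = 0.440). The list's count was 3 when cKO 3 was left out, where 176 of all genes rose and 134 fell. It was 4 when control 2 was left out (552 and 168 over all genes). With sex added to the model it was 1 (Adamts18), beside 173 and 63 over all genes.

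Of 26 matrix genes of the vitreous and of the inner limiting membrane, all were tested, 4 rose and 3 fell, with a median of 0.05, where 6.36% rose and 5.63% fell over all genes. Those that fell were collagen genes of the vitreous: Col2a1 was at 186, 231 and 147 CPM in cKO 1, 2 and 3, against 456, 296 and 322 CPM in controls 2, 3 and 4 (log2 fold change -1.10, SE 0.10, adjusted p = 0.000464, edgeR). Col9a1 fell by 1.05 (SE 0.11) and Col9a3 by 0.62 (SE 0.10). The groups overlapped for Col9a3, at 68.5, 62.7 and 25.7 CPM in cKO 1, 2 and 3, against 93.8, 45.1 and 40.8 CPM in controls 2, 3 and 4. Of the genes that rose, 3 encode basement membrane proteins, with Nid1 at 19.7, 28.6 and 45.1 CPM in cKO 1, 2 and 3, against 5.44, 5.36 and 7.09 CPM in controls 2, 3 and 4 (log2 fold change 2.51, SE 0.21, adjusted p = 0.000324), and Col4a1 and Col4a2 each higher by 1.17 (SE 0.17 and 0.16). Of the 8 endothelium and pericyte markers 5 rose beside them, 1 (Kdr) fell and 2 (Cldn5 and Cspg4) did not pass. The summed level of the 8, most of it Kdr, was 295 to 579 CPM in cKO and 547 to 722 CPM in control retinas, and their part was not tested. Hapln1, a hyaluronan link protein gene, was higher by 2.76 (SE 0.46), with controls at 0.133 to 0.219 CPM. It passed the filter only through the cKO libraries, where it is high. Its place among the 4 that rose was therefore in part fixed, and no p-value is read from it. Without cKO 3 its call was lost, as were those of Col4a1 (adjusted p = 0.0581, edgeR) and Col9a3 (0.116). Optc, the vitreous proteoglycan opticin, did not pass (-1.08, SE 0.44, adjusted p = 0.162). The number of list genes called was 15 when cKO 1 was left out, where 1371 of all genes rose and 1336 fell. It was 3 when sex was added to the model, where 173 of all genes rose and 63 fell.

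Müller glia make Prss56 in the mouse retina, and genes of that class were called in both directions. Whether these changes lie in Müller glia or in other cells of the newborn retina was not tested. Of 20 genes, 3 rose and 7 fell, with a median of -0.13, where 6.36% of all genes rose and 5.63% fell. Those that rose were the secreted chaperone gene Clu (1.84, SE 0.29), the intermediate filament gene Vim (1.08, SE 0.09) and Timp3, a metalloprotease inhibitor (0.97, SE 0.22). The genes that fell most were Spon1, which encodes a secreted adhesion protein (-1.59, SE 0.21), Id1, an inhibitor of bHLH factors (-1.50, SE 0.16), and Sox8, a glial transcription factor gene (-1.04, SE 0.12). Without cKO 3, 2 rose and 5 fell, where 176 of all genes rose and 134 fell. Without library set in the model 0 of the 20 passed, where 36 of all genes rose and 0 fell. With sex as a further term 5 of the 20 passed, where 173 of all genes rose and 63 fell.

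Of 17 ciliary margin genes, 16 were tested, 5 rose and 2 fell, with a median of 0.34, where 6.36% rose and 5.63% fell over all genes. Sfrp2, a secreted Wnt modulator gene, was at 474, 506 and 434 CPM in cKO 1, 2 and 3, against 106, 38.5 and 55.4 CPM in controls 2, 3 and 4 (log2 fold change 2.71, SE 0.22, adjusted p = 0.000240, edgeR). Wls, needed for the secretion of Wnt proteins, rose by 2.55 (SE 0.33), the cyclin gene Ccnd2 by 1.43 (SE 0.14), and the transcription factor genes Zic1 and Zic2 by 0.67 (SE 0.12) and 0.53 (SE 0.09). Col9a1 (-1.05, SE 0.11) and Gas1 (-0.61, SE 0.15) fell. Levels in cKO and control libraries overlapped for Zic1, Zic2 and Gas1. Msx1 (-0.74, SE 0.58, adjusted p = 0.474), Wfdc1 (0.73, SE 0.37, adjusted p = 0.250) and Otx1 (0.19, SE 0.26, adjusted p = 0.708), markers of the margin's distal tip, did not pass. Calls numbered 4 without cKO 3, where 176 of all genes rose and 134 fell. They numbered 2 when sex was added (173 and 63 over all genes) and 0 when library set was dropped (36 and 0).

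**Figure D4:**
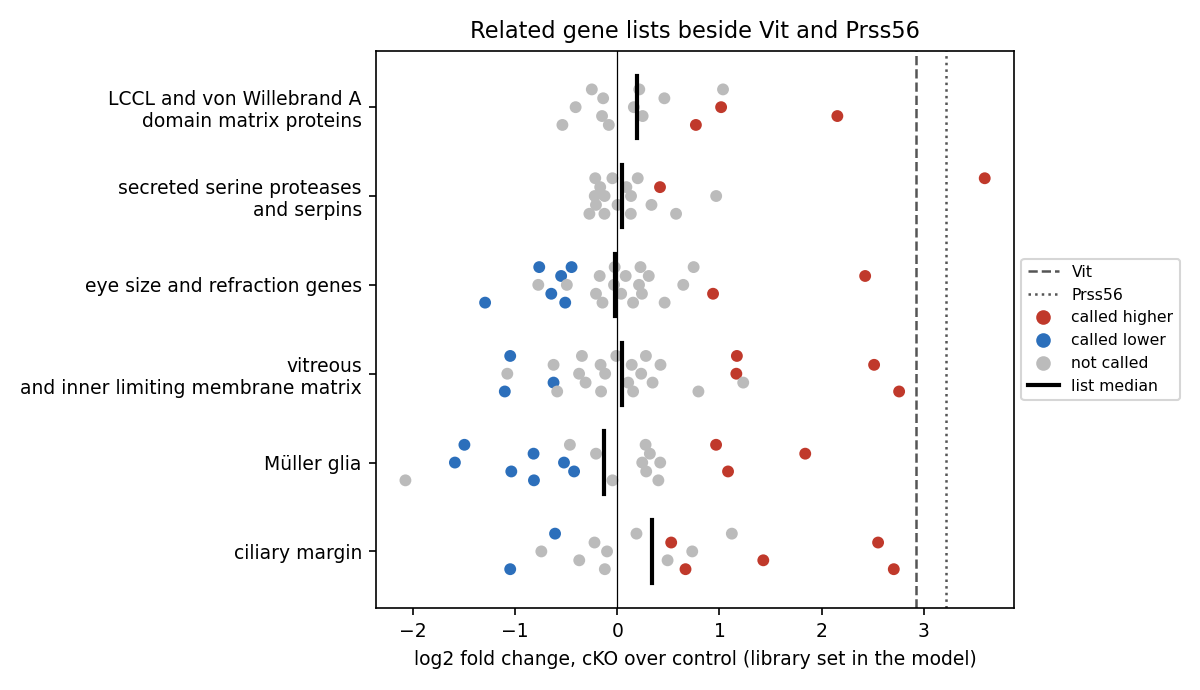
Log2 fold change, cKO over control with library set in the model, of each tested member of 6 related lists; red was called higher, blue lower, grey not called, black bars are list medians, and the dashed and dotted lines mark Vit (2.92) and Prss56 (3.21). List medians run from -0.13 to 0.34, and Htra3 at 3.60 is the only listed gene beyond Prss56.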

How the data were processed

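Retinal RNA libraries of 3 cKO and 3 control mice were analysed, 1 mouse a library as far as the series text says. The authors deposited raw counts of reads per gene, in whole numbers. The submitters' processing notes list GRCm38, edgeR, HTSeq and STAR; no source used here states the strand setting. Rows naming no gene held 26.41 to 28.76% of counts and were left out. Symbols, positions and exon lengths came from GENCODE vM21 (95.99% of 39179 identifiers matched), promoters from RefSeq (GRCm38.p6).

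Counts were fitted in R 4.3.3 with edgeR 4.0.16 (filterByExpr, 16691 genes, TMM, glmQLFit and glmQLFTest, 2-sided, Benjamini-Hochberg over all genes, threshold 0.05), with library set (ambiguous share above or below 2.9%) and genotype as terms, 3 residual degrees of freedom; SE came from the fold change and F. Log2 CPM used a prior count of 2. This test was checked on simulated data. Libraries of 1 group were no duplicates: their chi-square per degree of freedom was 23.0 to 532. Counting intervals cover counting error only.

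The members and lists were chosen with earlier results of these data known. Genes were named by rule: the 6 closest in pattern, neighbours within 500 kb, the 3 genes before and after in the order of rises, and up to 6 called members per list with a mean of at least 1 CPM; Hapln1 (under 1 CPM) and the other list members named with no call were picked with their values in view. Some genes that this rule names are not reported here. Settings varied were no set term, RLE or no scaling, other filters, sex as a term, DESeq2 1.42.0, limma-voom (limma 3.58.1), the label number as a block, and leaving out each library.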

Additional observations from a re-analysis of the deposited data

How the results depend on the processing

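The log2 fold changes of Vit and Prss56 kept their direction in every alternative run, including each set alone. Vit ran from 2.88 to 2.98 without single libraries and reached 3.03 with sex as a further term. That shift is larger than the pooled SD of its log2 CPM within groups under TMM (0.0709). It is smaller than the SE of the fit with sex (0.19). Prss56 ran from 2.96 to 3.51 without single libraries. The set difference of Vit was -0.17 with library size alone. It lay between -0.0445 and 0.0843 without single libraries (-0.00603 without control 2 and -0.0445 without control 4).

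Over all genes, 1062 rose and 939 fell; 36 and 0 without the set term, 173 and 63 with sex. The falls came to 1592 with no low-count filter and 1672 in DESeq2. Without single libraries 176 to 1371 genes rose and 134 to 1336 fell (lowest without cKO 3, highest without cKO 1). Without the set term, edgeR called 0 LCCL and von Willebrand A, 0 protease and serpin, 1 eye size, 0 vitreous, 0 Müller glia and 0 ciliary margin genes; with sex 0, 1, 1, 3, 5 and 2. The vitreous list had 15 calls with no filter and 11 in DESeq2. Without single libraries the lists gave 0 to 3, 1 to 4, 3 to 8, 6 to 15, 7 to 11 and 4 to 8 calls, in the same order. Of the 6 genes closest to Vit, 0 were shared by Spearman's rank correlation and 2 after subtracting set means; of those closest to Prss56, 6 and 1. Pdgfra, near 0, turned to 0.0241 with library size alone, 0.00555 with a mean CPM of at least 1, 0.0518 with sex and 0.0946 with the block, and ran from -0.0893 to 0.0601 without single libraries.

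Label numbers 2 and 3 occur in both groups, and the labels do not say what they share. Same-numbered libraries deviated together (r = 0.77 for number 2 and 0.674 for number 3), and both pairs lie within 1 library set. Differently numbered libraries of the same set did so about as much, with r = 0.714 for control 2 with cKO 1 and 0.671 for control 4 with cKO 3. The label number thus cannot be told apart from library set here. With the replicate block in place of library set, Vit was at 2.97 and Prss56 at 2.81, 1007 genes rose and 1033 fell, and the LCCL and von Willebrand A list had 1 call. With 163 to 229 Vit reads per control, depth limits its control level to about 7.41%.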
